A study of Homo sapiens with 2 samples.

Results

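Processed pseudogenes of the ribosomal protein genes were followed in 2 RNA-seq libraries of the MDA-MB-231 line, established from a triple-negative breast cancer. 1 library carries the control label and 1 the label of Carpesium cernuum extract (CCE), a plant preparation that the protocols give as 1 µg/mL for 24 h. The same treatment text stands on both samples, so the groups follow the treatment label, and the sources used here do not name a vehicle for the control. Members were genes annotated as processed pseudogenes whose symbol is a ribosomal protein gene's name followed by P and a number, with at least 20 raw counts summed over both libraries. Of 1520 such pseudogenes in the count tables, 186 met this minimum, 362 had 1 to 19 counts and 972 had none. The tables list 63677 genes in all.

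Ribosomal proteins are the structural proteins of the small (RPS) and large (RPL) subunits of the ribosome, and their mRNAs are among the most abundant of a growing cell. Processed pseudogenes arose when such mRNAs were reverse transcribed by retrotransposon enzymes and inserted elsewhere in the genome, so they lack the introns and the promoter of the gene they were copied from, called the parent here. Most are not known to make protein. A read from a parent mRNA can align to a near-identical copy, so a count on a pseudogene shows where a read was placed and not that the locus was transcribed.

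The member genes resembled their parents closely. Each of the 186 had its best match among the ribosomal protein transcripts with the parent named in its symbol. They belonged to 61 parents, 125 of them to RPL and 61 to RPS genes, and 183 were annotated with a single exon. The median identity to the parent transcript was 96.8% of aligned columns (quartiles 94.3% and 98.4%), and 6 members were identical to it along the whole alignment. The 1334 ribosomal protein pseudogenes under the minimum had a median identity of 87.6% (quartiles 82.8% and 91.5%). The longest stretch identical to the parent had a median of 116.5 bases in members and 36 bases in the others. Identity took no part in the choice of members.

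The sequences of 4 members are shown, chosen for their counts or their high ratios, and no member at least 2-fold lower in the CCE library is among them. RPS28P7 is among the most counted members and identical to its parent, RPS27P8 and RPS13P2 were the most counted of those at least 2-fold higher in the CCE library, and RPS3AP20 had the largest ratio. Each stretch is 120 bases of the GRCh37 reference inside the parent's coding sequence, placed where the copy differs most from its parent, in a part with no gap in the alignment. Capitals mark bases of the pseudogene that differ from the parent's transcript, printed on the line after it. RPS28P7 equals RPS28 along all 207 coding bases, so it is shown alone.
RPS28P7: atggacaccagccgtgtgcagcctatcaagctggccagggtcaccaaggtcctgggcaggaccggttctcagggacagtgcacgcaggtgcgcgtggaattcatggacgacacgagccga
RPS27P8: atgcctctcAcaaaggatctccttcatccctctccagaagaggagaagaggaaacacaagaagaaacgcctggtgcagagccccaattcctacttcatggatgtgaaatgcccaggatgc
RPS27: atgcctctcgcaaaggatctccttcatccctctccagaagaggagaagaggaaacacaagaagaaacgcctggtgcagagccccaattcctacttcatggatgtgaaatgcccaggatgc
RPS13P2: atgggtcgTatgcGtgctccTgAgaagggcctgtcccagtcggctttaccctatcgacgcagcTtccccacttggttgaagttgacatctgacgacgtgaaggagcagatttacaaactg
RPS13: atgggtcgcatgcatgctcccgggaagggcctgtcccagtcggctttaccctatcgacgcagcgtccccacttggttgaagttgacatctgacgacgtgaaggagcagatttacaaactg
RPS3AP20: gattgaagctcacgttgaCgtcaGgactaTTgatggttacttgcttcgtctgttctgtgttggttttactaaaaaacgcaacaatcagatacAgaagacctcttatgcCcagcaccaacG
RPS3A: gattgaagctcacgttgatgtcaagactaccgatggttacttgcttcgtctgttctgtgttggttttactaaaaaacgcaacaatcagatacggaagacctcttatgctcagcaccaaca
The RPS28P7 stretch lies at chr11:82400601-82400720 on the plus strand and the RPS27P8 stretch at chr1:202441126-202441245 on the minus strand. The RPS13P2 stretch lies at chr1:53238201-53238320 on the minus strand and the RPS3AP20 stretch at chr5:78580267-78580386 on the minus strand. Over the aligned coding sequence, RPS27P8 differed from RPS27 at 2 bases. RPS13P2 differed from RPS13 at 12 bases, with 1 gap column, and RPS3AP20 from RPS3A at 18, with 8 gap columns.

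Gene counts summed to 5633569 for the control and 34884501 for CCE. Counts were scaled to effective library size (CPM), so that the CCE library counted as 6.36 times as deep and 1 count was worth 0.180 CPM for the control against 0.0283 CPM for CCE. Each group has 1 library, so differences have no replicate check and no test, and a change in RNA per cell cannot be told apart from a change in the kinds of cells. Ratios are CCE over control, each with an exact 95% interval (Clopper-Pearson) for counting error alone. Genes past 2-fold whose interval left out 1 were called higher or lower. For a gene at 0 counts the ratio is a bound set by a floor of 3 counts per library, worth 0.540 CPM for the control and 0.0849 CPM for CCE. Records aligned to more than 1 place, which the counts leave out, made up 11.6% of all control records and 17.3% of all CCE records. Their part in the pseudogene ratios was not tested. As a check of the cell line, the mesenchymal marker gene VIM had 3739 and 1801 CPM. CD44, AXL and CAV1, also chosen as present, had 767 and 616, 622 and 323, and 339 and 158 CPM. The estrogen receptor gene ESR1 had 0 counts in both libraries, and the progesterone receptor gene PGR had 0 and 6. Of the other genes chosen as low or absent, CDH1 had 0 and 1 counts and EPCAM 10.1 and 7.50 CPM. ERBB2 had 55.4 and 51.8 CPM and KRT19 157 and 103 CPM, so ERBB2 and KRT19 were not absent.

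The count minimum bears on every summary over members. At equal scaled counts, a member at the minimum would hold 2.72 control and 17.3 CCE counts, so a gene that is high in the CCE library passes more readily. 29 of the 186 members had too few control counts to pass at equal scaled counts, and 12 of these 29 were called higher. Just outside the minimum lay RPS15AP1 with 4 control and 15 CCE counts and RPSAP18 with 1 and 18. Just inside lay RPL10P13 with 3 and 17 and RPL17P16 with 0 and 20. Summaries over the 186 members are therefore given as descriptions, beside all genes under the same minimum and for the summaries over all members and by family, identity and place beside pseudogenes chosen by their control counts alone. Summaries by depth and sums over the members of a family have no such counterpart. The same holds for comparisons with the gene around a copy and for other pseudogenes beside their parents.

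Ribosomal protein pseudogenes leaned toward the CCE library while their parents leaned slightly toward the control library. Of the 186 members, 129 had a log2 ratio above 0, and the median was 0.35 (95% order-statistic interval over members 0.20 to 0.55), a 1.27-fold higher level in the CCE library. The median over their 61 parents was -0.13 (-0.24 to -0.02). 32 members (17.2%) were called at least 2-fold higher, where 4.69% of all 15930 genes with at least 20 counts were. 5 members (2.69%) were called at least 2-fold lower, against 4.66% of all genes. At 1.5-fold, 48 members (25.8%) were called higher and 9 (4.84%) lower, against 11.9% and 10.4% of all genes. Among 12192 protein-coding genes the median was 0.06, with 421 called higher and 517 lower.

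**Figure D1:**
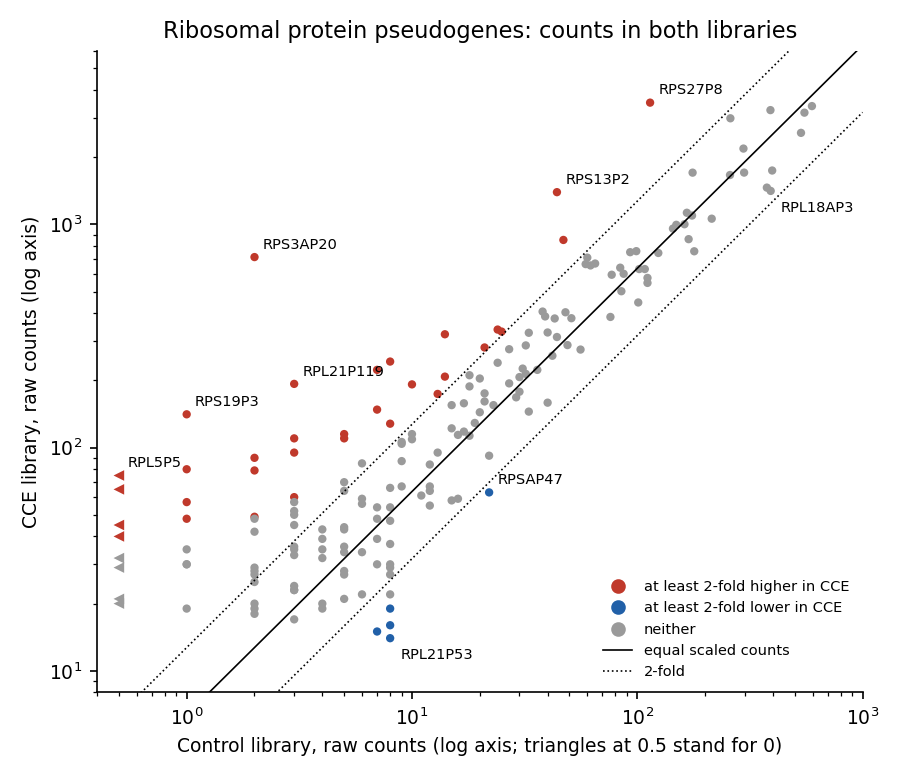
Raw counts of the 186 pseudogenes in the control library (horizontal, log axis) and the CCE library (vertical, log axis), 1 point per gene. The solid line marks equal scaled counts and the dotted lines 2-fold; 32 points (red) are called higher in CCE, 5 (blue) lower, and the 8 triangles are members with 0 control counts.

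Other processed pseudogenes leaned the same way. The 559 other processed pseudogenes with at least 20 counts had a median log2 ratio of 0.46 (0.38 to 0.57), with 90 called higher (16.1%) and 12 lower (2.15%). Both sets of pseudogenes lay close to each other over most of their range, and to the right of protein-coding genes. The lean was smaller where genes were chosen by control counts. That choice can lean the other way, because genes whose control count is high through counting error pass it more readily. Of the 173 ribosomal protein pseudogenes with at least 3 control counts, whatever their CCE count, the median was 0.14 (0.02 to 0.27), with 20 called higher (11.6%) and 12 lower (6.94%). All genes chosen this way had a median of 0.01, with 3.57% called higher and 6.47% lower. The 471 other processed pseudogenes chosen this way had a median of 0.05 (-0.02 to 0.14), with 9.34% called higher and 7.86% lower. With at least 10 control counts, 96 ribosomal protein pseudogenes had a median of 0.15 (0.02 to 0.27), 10 called higher (10.4%) and 1 lower (1.04%). All genes chosen so had 2.84% called higher and 5.23% lower. The 226 other processed pseudogenes chosen so had a median of 0.03 (-0.04 to 0.12), with 23 called higher (10.2%) and 12 lower (5.31%), so the share called higher was close to that of the ribosomal protein copies.

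**Figure D2:**
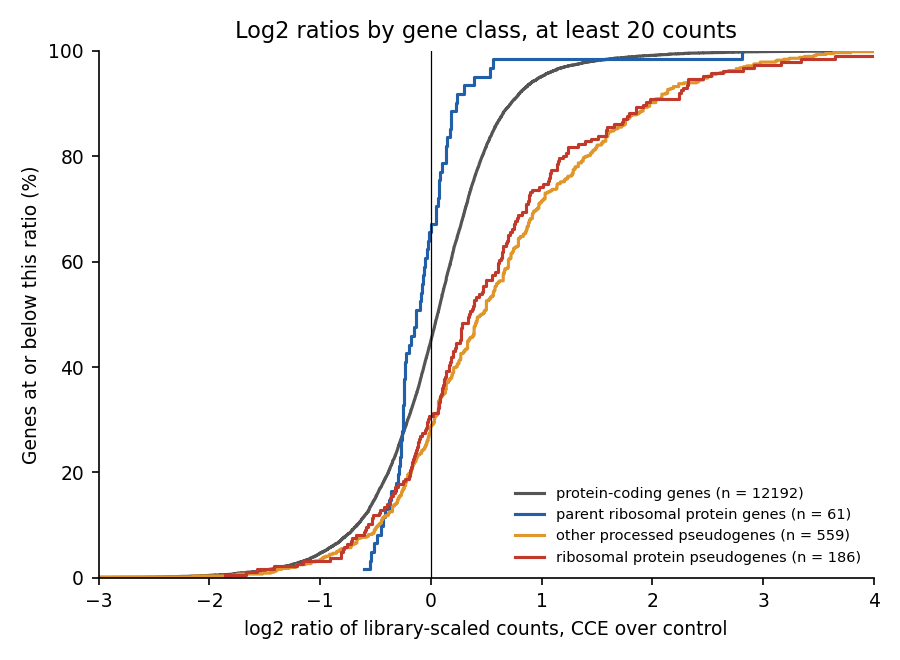
Cumulative share of genes (vertical, %) by log2 ratio of library-scaled counts, CCE over control (horizontal, shown from -3 to 4), for 4 classes with at least 20 counts. The curves of the 186 ribosomal protein pseudogenes and the 559 other processed pseudogenes lie near each other and, over most of the range, to the right of the 12192 protein-coding genes; at 0 the curve of the 61 parent genes stands highest.

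The median also differed with depth. Members with 20 to 49 counts (53 genes) had a median log2 ratio of 0.33, those with 50 to 99 (33 genes) 0.63 and those with at least 100 and under 500 (60 genes) 0.52. The 40 members with 500 counts or more had a median of 0.04 (-0.12 to 0.27), with 21 above 0. In these deep members 4 were called higher (10%) and 0 lower, where 2.13% of all genes at that depth were called higher and 1.73% lower. Other processed pseudogenes were close to this, with medians of 0.58, 0.70, 0.27 and 0.07 from the shallowest range to the deepest. In the deepest range, 5 of these 48 other pseudogenes were called higher (10.4%) and 0 lower. Summed over the 186 members, 9366 control counts stood against 68055 in the CCE library. That was 0.166% of gene counts (exact 95% interval 0.163% to 0.170%) and 0.195% (0.194% to 0.197%), a ratio of 1.14-fold (1.12 to 1.17) after scaling. Member counts per 100 counts on their parents were 3.54 in the control library and 4.50 for CCE.

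Among the 10 most counted members, the 2 libraries differed little for most and by nearly 5-fold for 1. RPLP0P6, a copy of the gene of the stalk protein P0, had 596 control and 3390 CCE counts, or 107 and 95.9 CPM. Its log2 ratio was -0.16 (-0.29 to -0.03). RPS28P7, the identical copy of RPS28 on chromosome 11, had 552 and 3168 counts, or 99.3 and 89.6 CPM. Its log2 ratio was -0.15 (-0.28 to -0.01). Both were slightly lower in the CCE library, by less than 2-fold.

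RPS18P5, a copy of a small-subunit gene, had 390 and 3252 counts, 1.31-fold higher in the CCE library (1.18 to 1.46). RPS15P4 had 259 and 2989 counts, 1.82-fold higher, with an interval that reached 2.07-fold, yet the authors list it at 129 and 0 FPKM. RPL3P4 had 296 and 2187 counts, 1.16-fold higher (1.03 to 1.32). These 3 lay above 1 with intervals that excluded it, and none of the 3 ratios reached 2-fold. RPL15P3 had 533 and 2572 counts and a log2 ratio of -0.40 (-0.53 to -0.26), against 0 and 218 FPKM in the authors' values. RPL7P9 had 397 and 1744 counts and -0.53 (-0.69 to -0.37). RPL23AP42 and RPL36AP37 had log2 ratios of -0.15 (-0.33 to 0.03) and 0.02 (-0.17 to 0.22), so neither differed between the libraries beyond counting error.

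RPS27P8 stood apart from the others at this depth. This copy of RPS27, which encodes a zinc-finger protein of the small subunit, lies on chromosome 1 from 202440992 to 202441245 on the minus strand. It had 114 control and 3513 CCE counts, or 20.5 and 99.4 CPM, 4.85-fold higher (4.02 to 5.89). The parent RPS27 had 2619 and 18938 counts and a log2 ratio of 0.19. The copy lies within PPP1R12B, a gene of the opposite strand that had 45 and 207 counts and a log2 ratio of -0.47 (-0.94 to 0.03). Without RPS27P8 the log2 ratio of the summed member counts was 0.13 in place of 0.19.

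RPS13P2, named after its values were seen, was close to it in size. This copy of RPS13, another small-subunit gene, had 44 control and 1395 CCE counts, or 7.91 and 39.5 CPM, 4.99-fold higher (3.70 to 6.90). RPS13 itself had 3219 and 21091 counts and a log2 ratio of 0.04. The copy thus differed between the libraries far more than its parent did.

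The largest ratio belonged to RPS3AP20, a copy of the small-subunit gene RPS3A on chromosome 5 from 78579955 to 78580741. It had 2 control and 714 CCE counts, or 0.360 and 20.2 CPM, 56.2-fold higher with an interval of 15.5 to 465. The parent RPS3A went the other way, with 5739 and 24020 counts and a log2 ratio of -0.60. JMY, the gene on the opposite strand in which the copy lies, had 105 and 1006 counts and a log2 ratio of 0.59 (0.30 to 0.90). The authors' FPKM did not show this difference: RPS3AP20 was listed at 1.32 in the control library and 1.91 for CCE.

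The other 7 of the 8 highest ratios rested on 1 to 3 control counts. RPS19P3 had 1 and 141 counts, 22.2-fold higher (3.92 to 882). RPS27P19 had 1 and 80 counts, 12.6-fold (2.20 to 503), and RPL21P119 had 3 and 193, 10.1-fold (3.41 to 49.5). RPL12P12 had 1 and 57 counts, RPS6P25 1 and 48, RPL17P50 2 and 90, and RPS12P23 2 and 79. These last 4 had ratios of 8.97-, 7.55-, 7.08- and 6.21-fold, and the lower ends of their intervals lay between 1.29- and 1.90-fold. The control library had few reads on these copies, so the size of each difference is poorly known.

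8 members had 0 control counts, and 0 members had 0 CCE counts. Under the same minimum, 163 of all 15930 genes and 41 of the 559 other processed pseudogenes had 0 control counts. 0 of all these genes had 0 CCE counts. A gene at 0 control counts passed the minimum through the deeper CCE library alone. By the floor of 3 counts, RPL5P5 with 75 CCE counts was at least 3.93-fold higher, RPL4P2 with 65 at least 3.41-fold, RPL5P24 with 45 at least 2.36-fold and RPL7AP39 with 40 at least 2.10-fold. RPS3AP49, RPS18P12, RPL21P93 and RPL17P16 had 32, 29, 21 and 20 CCE counts and floor bounds of 1.68-, 1.52-, 1.10- and 1.05-fold, under the 2-fold threshold. The lower ends of the exact intervals lie below these bounds, at 3.12-, 2.69-, 1.84- and 1.63-fold for the first 4. They are 1.29- and 1.16-fold for RPS3AP49 and RPS18P12, and 0.819- and 0.777-fold for RPL21P93 and RPL17P16, whose intervals include 1.

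Of the 32 members called higher, 22 had under 10 control counts and 10 had more. Beside RPS27P8 and RPS13P2, the latter 10 held RPL17P39, RPL38P4, RPS26P47, RPS27AP5, RPS27P4, RPL36P14, RPSAP54 and RPS2P28, all named after their values were seen. RPL17P39 had 47 and 852 counts, 2.85-fold higher (2.13 to 3.91), and RPS27AP5, a copy of the gene that encodes ubiquitin fused to a ribosomal protein, had 14 and 322 counts, 3.62-fold higher (2.13 to 6.69). RPSAP54 had 10 and 192 counts, 3.02-fold higher (1.61 to 6.40). The other 5 had ratios between 2.08- and 2.34-fold. By the authors' FPKM, RPL17P39 was also higher in the CCE library, at 29.4 and 36.7. RPS27AP5 and RPSAP54 went the other way, at 23.2 and 0 and at 8.52 and 0 FPKM.

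Few members were called at least 2-fold lower in the CCE library, though the intervals of 17 members lay wholly below 1. Of the 173 copies chosen by at least 3 control counts alone, 12 were called lower (6.94%), against 6.47% of all genes chosen this way. The 5 of the 186 members called lower were RPL21P53 with 8 and 14 counts, RPL21P80 with 8 and 16, RPS9P1 with 7 and 15, RPL39P36 with 8 and 19 and RPSAP47 with 22 and 63. Their log2 ratios were -1.86 (-3.21 to -0.40), -1.67 (-2.98 to -0.24), -1.57 (-2.95 to -0.03), -1.42 (-2.68 to -0.02) and -1.15 (-1.87 to -0.38). RPL21P53 and RPS9P1 overlap an exon of another gene. 3 deeper members among the 8 lowest stayed within 2-fold. RPL18AP3 had 391 and 1413 counts (log2 ratio -0.81, -0.98 to -0.65), RPL7P1 376 and 1462 (-0.71, -0.87 to -0.54) and RPL5P23 40 and 159 (-0.68, -1.19 to -0.14). RPL18AP3 lies within TXNRD1, on the same strand, which encodes thioredoxin reductase and had 6807 and 91207 counts. The log2 ratio of TXNRD1 was 1.08, so the copy and the gene around it lay on opposite sides of 0.

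Each pseudogene was then set beside its parent, a comparison that does not depend on the scaling of the libraries. The member's log2 ratio exceeded the parent's in 145 of 186 pairs, with a median difference of 0.58 (0.45 to 0.74). 46 members (24.7%) had a ratio at least 2-fold above the parent's with an exact conditional interval that excluded 1, and 3 (1.61%) had one at least 2-fold below. The 402 other processed pseudogenes with a parent of their own name had a median difference of 0.50 (0.42 to 0.67), with 16.2% at least 2-fold above and 0.498% at least 2-fold below. For these other pseudogenes, no counterpart chosen by control counts was compared with the parents. Among ribosomal protein pseudogenes chosen by at least 3 control counts alone the median difference was 0.36 (0.17 to 0.50), with 30 of 173 above and 10 below. Members that share a parent share its counts, so these pairs are not independent.

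The 3 members below their parent were RPL36AP37, RPL39P36 and RPL21P53. RPL36AP37 had 258 and 1665 counts, while its parent RPL36A had 4 and 178. RPL36A, RPL17 (17 and 91 counts) and RPS10 (55 and 506 counts) held far fewer counts than the other parents, so comparisons with these 3 are uncertain. Without their members the median difference was 0.59 over 177 members, with 44 above and 2 below.

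On a scale of CPM per kilobase of annotated exon, members lay well under their parents in both libraries. The median was 1.98% of the parent's level in the control library and 2.84% for CCE, and 46 and 56 members reached 10% of it. RPLP0P6 stood at 21.5% and 23.2% of RPLP0, and RPS27P8 at 17.6% and 75.1% of RPS27. RPL15P3, with 3 mismatches to RPL15, stood at 99.8% and 97.2%. RPS28P7 stood at 296% and 268% of RPS28. A parent's length is that of all its annotated exons joined, 2119 bases for RPS28 and 7141 for RPL15. The copies RPS28P7 and RPL15P3 span 210 and 615 bases. Where the joined exons are longer than the expressed transcript, these percentages are too high. By raw counts RPS28P7 held 552 and 3168 against 1882 and 11949 for RPS28, so it did not exceed its parent there. The order of copy and parent on this scale thus depends on the annotated lengths.

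The 79 measured genes of the cytosolic ribosomal protein list, 1 of which was called higher and 0 lower, had a median log2 ratio of -0.07 (-0.15 to -0.00165). The 1 called higher was RPL36A, whose few counts are given above. The parents ranged from -0.60 for RPS3A to 0.56 for RPL37, leaving out RPL36A at 2.81. 41 of the 61 lay below 0. In 50 of 61 families the summed members had a higher ratio than the parent. Of these 61 families, 20 held 1 member, and members high in the CCE library passed the count minimum more readily. No counterpart of this count chosen by control counts was made.

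All 15 families with at least 5 members had a median above the parent's log2 ratio, yet members spread widely in several of them, RPL21, RPS3A and RPS27 included. RPL21, with 12 members of 128 annotated copies, ranged from -1.86 to 3.34 around a median of 0.36, while RPL21 itself had -0.24. The most counted of the 12, RPL21P16, is identical to the RPL21 transcript over its 483 bases and had 93 and 751 counts, 1.27-fold higher (1.02 to 1.59). RPL7A, with 10 of 78 copies, ranged from -0.79 to 1.07 around 0.32, against -0.49 for the parent. Its most counted copy RPL7AP6 had 166 and 1128 counts and a log2 ratio of 0.10 (-0.14 to 0.34).

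RPL5, whose protein binds 5S ribosomal RNA, had 8 measured copies ranging from -0.68 to 1.98, with a median of 0.38 against -0.26 for RPL5. RPL5P34, the most counted of these copies, had 99 and 759 counts and 0.27 (-0.03 to 0.59). The 8 copies of RPS3A all lay above 0, from 0.09 to 5.81, and all above RPS3A itself. RPSA, which encodes a small-subunit protein also known as the laminin receptor, had 8 copies from -1.15 to 1.79 around 0.15, against -0.45 for the parent. The 7 RPS27 copies ranged from -0.35 to 3.65 around 0.98, the highest median of these 15 families. Their summed counts, 208 and 4617, were 3.49-fold higher in the CCE library. RPS27P8 held most of them, and the other 6 copies summed to 94 and 1104 counts, 1.85-fold higher, with an interval that reached 2.31-fold and excluded 1. Chosen by at least 3 control counts alone, 14 families had at least 5 copies, and the median lay above the parent in 12 of these, the exceptions being RPL12 and RPL17.

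**Figure D3:**
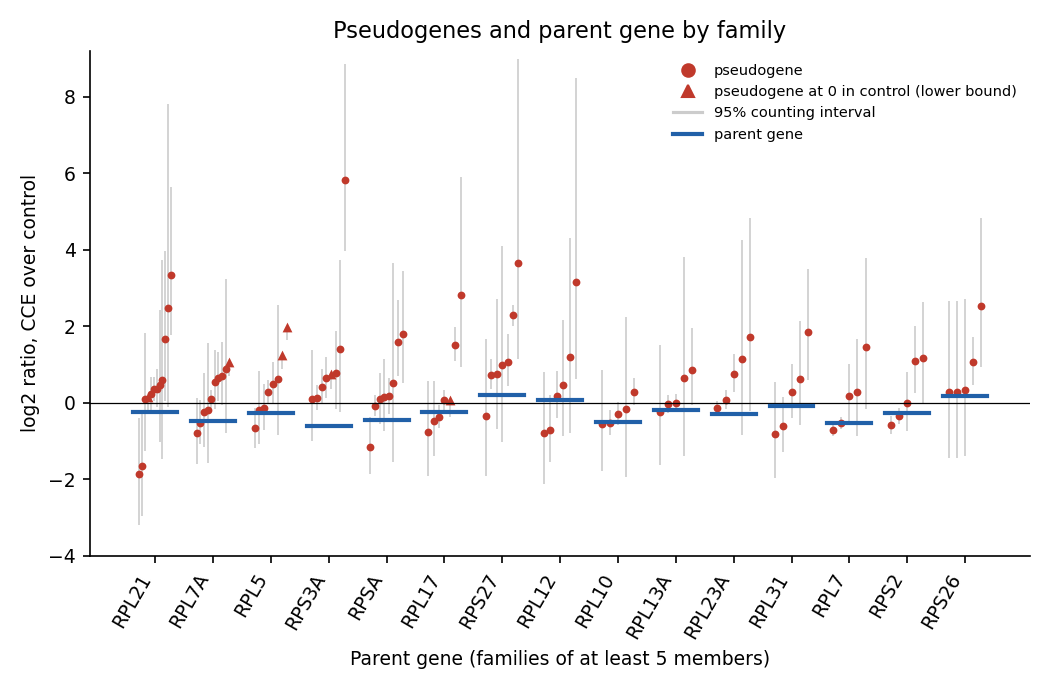
Log2 ratio, CCE over control (vertical), of each pseudogene (red points, ordered by ratio; triangles are lower bounds at 0 control counts) and of the parent gene (blue bars) in the 15 families with at least 5 members (horizontal); grey lines are 95% counting intervals, cut at the upper edge. Most points lie above the blue bar of their family, and the RPS3A point at 5.81 is RPS3AP20.

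Among the 186 members, the median above 90% identity was lower where the copy was closer to its parent. The 43 members with an identity above 90% and up to 95% had a median log2 ratio of 0.86 (0.50 to 1.19), with 14 called higher and 1 lower. Of all genes, 4.69% were called higher and 4.66% lower. The 69 members above 95% and up to 98% had 0.39 (0.13 to 0.70), the 30 above 98% and up to 99% had 0.15 (0.07 to 0.39), and the 34 above 99% had 0.04 (-0.15 to 0.35). In these last ranges, in the same order, 10, 2 and 5 members were called higher and 2, 0 and 1 lower. The 10 members at 90% or less had 0.42 (-1.21 to 1.58), too wide to place, with 1 called on each side. Spearman's rho between identity and log2 ratio was -0.24 and Pearson's r -0.08 over 186 members, which share both libraries and, in part, their parents.

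Identity and depth moved together (rho 0.50), with a median of 65 counts for members of 90% to 95% identity and 500 for those above 99%. Among members with at least 100 counts, the median log2 ratio was 0.89 (0.18 to 1.73) for 16 up to 95% identity. It was 0.55 (0.13 to 0.75) for 33 above 95% and up to 98%, and 0.12 (-0.08 to 0.23) for 51 above 98%. The median depth of these 3 groups still differed, at 175.5, 251 and 717 counts. Chosen by at least 3 control counts alone, the step was smaller than over all members and the intervals overlapped. The median was then 0.45 (-0.17 to 0.79) for 34 pseudogenes above 90% and up to 95%, 0.27 (-0.04 to 0.55) for 63 up to 98%, 0.11 (-0.11 to 0.26) for 28 up to 99% and 0.04 (-0.15 to 0.35) for 34 above 99%. The 14 at 90% or less had -0.74 (-3.08 to 0.60). From the lowest identity range up, 1, 5, 8, 1 and 5 of these pseudogenes were called higher and 5, 4, 2, 0 and 1 lower. Of all genes chosen this way, 3.57% were called higher and 6.47% lower. GC content and log2 ratio had a rho of -0.21. Of the 6 members identical to their parent transcript, RPS28P7, RPL36AP37 and RPL21P16 are described above. RPL41P1 had 27 and 276 counts and a log2 ratio of 0.69 (0.11 to 1.31), RPL39P3 had 30 and 178 (-0.10, -0.66 to 0.51) and RPL41P5 had 13 and 95 (0.20, -0.64 to 1.16). None of these 6 was called on either side.

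**Figure D4:**
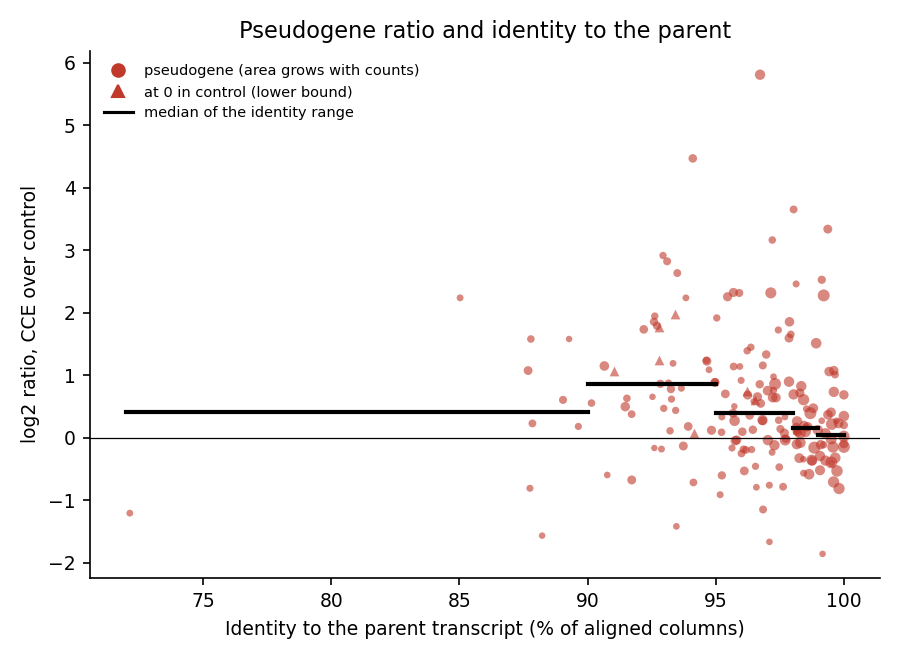
Log2 ratio, CCE over control (vertical), by identity to the parent transcript in percent of aligned columns (horizontal) for the 186 pseudogenes; point area grows with total counts and triangles are lower bounds at 0 control counts. Black bars are medians of the 5 identity ranges and step down from 0.86 between 90% and 95% to 0.04 above 99%.

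By place in the genome, the intervals of the medians overlapped, also where copies were chosen by control counts (medians 0.27, 0.02 and -0.12 in the order below). 83 members overlapped no other annotated gene and had a median log2 ratio of 0.46 (0.26 to 0.65), with 11 called higher and 2 lower. 88 lay inside another gene without touching its exons and had 0.31 (0.10 to 0.64), with 19 called higher and 1 lower. The 15 that overlapped an exon of another gene had 0.12 (-0.29 to 1.07), with 2 called higher and 2 lower. Of all genes, 4.69% were called higher and 4.66% lower. Among the 76, 83 and 14 copies with at least 3 control counts, in this order, 8, 11 and 1 were called higher. In these groups 3, 5 and 4 were called lower. All genes chosen by control counts had 3.57% called higher and 6.47% lower. For 20 members inside a protein-coding gene of the same strand with at least 20 counts, the median was 0.66 for the members and 0.09 for those genes. The member lay above the gene around it in 12 of these 20. For 36 inside such a gene of the opposite strand it was 0.51 and 0.00161, with the member above in 21 of 36. The sources used here do not name the strand setting of the counting, so reads from both strands cannot be told apart.

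Of the other pseudogene families compared, copies of the iron storage gene FTH1 are a contrast, since FTH1 itself was higher in the CCE library. FTH1 had 30842 and 334678 counts and a log2 ratio of 0.77. Its 11 measured copies had a median of 0.88 (range 0.38 to 3.57), and 8 of them lay above FTH1. Measured copies of genes that were lower in the CCE library also lay above them for the most part. All these copies were chosen by the count minimum, which a copy high in the CCE library passes more readily. Copies chosen by control counts alone were not compared here. How far the minimum accounts for copies lying above their parents, FTH1 included, was therefore not tested. The translation elongation factor gene EEF1A1 had -0.32 and its 11 copies a median of 0.41, with 10 above the parent. The nucleolar gene NPM1 had -0.27 and its 9 copies 0.52, all above it. The cyclophilin gene PPIA had -0.70 and its 4 copies 0.20, all above it. HMGB1 had -0.64 and its 2 copies had -0.66 and -0.63. GAPDH, HNRNPA1, TPT1, HSPA8, KRT18 and PTMA had 1 to 3 measured copies each and TUBB had 0.

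The FPKM values that the authors deposited gave another picture for single copies. Of the 186 members, 40 were listed at 0 FPKM in the control, 47 in the CCE library and 19 in both, although each held at least 20 counts over both libraries. The median log2 ratio on the log2(FPKM + 1) scale was 0, with 90 members above 0 and 77 below. RPS27P8 was listed at 0 and 80.9 FPKM, and RPS13P2, higher by counts, at 21.8 and 0 FPKM. Of the 32 members called higher by counts, 19 lay above 0 and 9 below 0 by FPKM, and of the 5 called lower, 1 lay below 0. Of members listed above 0 in both libraries, 118 in all, the median was 0.23, where 11155 genes listed in this way had -0.20. The difference between member and parent kept its side of 0 by FPKM, with a median of 0.42 (0.14 to 0.66). No source used here names the program behind the FPKM values. Over 12192 protein-coding genes, Spearman's rho between counts per kilobase and FPKM was 0.80 in each library. Over the 186 members it was 0.52 for the control and 0.51 for CCE, and over the 61 parents it was lower, at 0.41 and 0.29. Between the log2 ratios of counts and of FPKM it was 0.01 over the members and 0.33 over the protein-coding genes. Whether each FPKM row carries the right gene ID could not be checked, so the FPKM of a single copy or parent is uncertain.

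**Figure D5:**
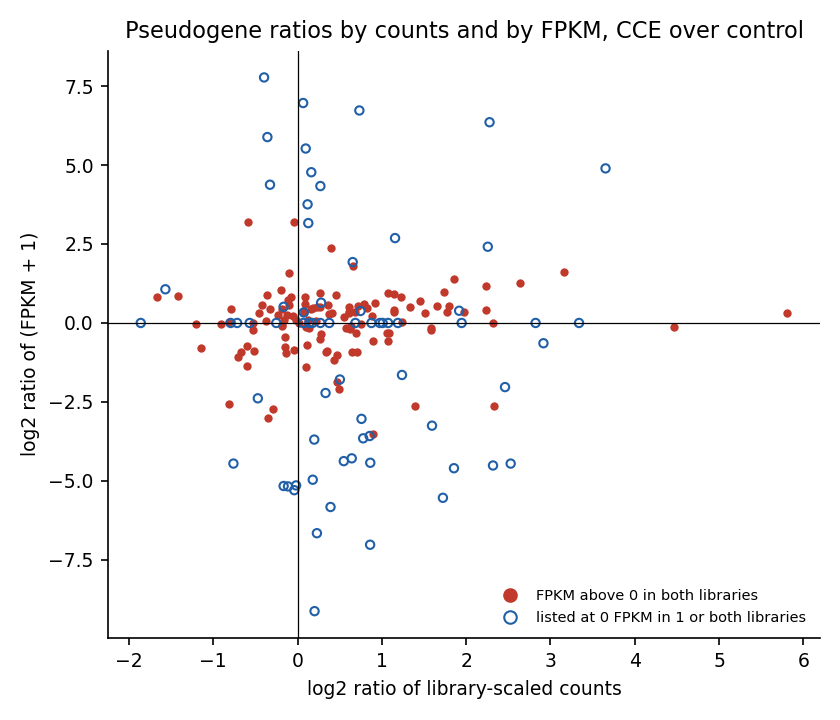
Log2 ratio of (FPKM + 1) (vertical) against log2 ratio of library-scaled counts (horizontal), CCE over control, for the 186 pseudogenes; open blue points are listed at 0 FPKM in at least 1 library. Points scatter in all 4 quadrants, with 90 above and 77 below 0 on the FPKM axis.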

How the data were processed

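RNA-seq was made from 1 control and 1 CCE library. The authors deposited raw counts per Ensembl gene and FPKM values. Per the submitters' processing notes, HISAT2 was used with hg19 and GRCh37. The sources used here name no counting program, strand setting or FPKM program. The last 5 rows of each count table name no gene, hold 62.9% and 66.8% of records and were left out. The FPKM tables that the authors deposited have 215170 rows with repeated gene IDs, which were summed per gene; their depth is unknown.

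GENCODE release 44 in its GRCh37 lift gave symbols, biotypes, coordinates and transcripts, and sequences were read from the GRCh37 genome (55665 of 63677 IDs found). Libraries were scaled with TMM factors (edgeR 4.0.16, R 4.3.3). Intervals were exact (scipy 1.17.1) and were tested on simulated data. Pseudogene spans were aligned to the parent's canonical transcript (Biopython 1.88, local alignment, match 2, mismatch -3, gap -5, extension -2), and the best ribosomal protein transcript was found with blastn 2.17.0.

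Members and lists were chosen with earlier results of these data known. Named members were the 10 with the most counts, the 8 highest and the 8 lowest ratios with an interval excluding 1, members at 0 in 1 library, and the most counted member of the 4 largest families. Alternatives were other scalings (total count, upper quartile, DESeq2 1.42.0), count minimums, biotypes, overlaps, thresholds and FPKM with pseudocounts of 1 and 0.1. Intervals and floors describe counting error alone, since reads copied by PCR are not separate molecules. 1 further sequence is not reported here.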

Additional observations from a re-analysis of the deposited data

Results flagged for a closer look

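2 record classes outside the gene counts were larger in the CCE library than in the control by more than counting error. Records aligned to more than 1 place were 17.3% of all records in the CCE library and 11.6% in the control. Records that did not align were 11.0% in the CCE library and 7.67% in the control. With 1 library per group, treatment and library cannot be told apart, and the part of these records in the pseudogene ratios was not tested.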

How the results depend on the processing

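No paired analysis was possible because each group has 1 library. The number of members called higher was 32 and stayed between 29 and 48 under the other scalings, count minimums, biotypes, exon overlaps and thresholds, apart from 11 of 83 members that overlap no other gene and 20 of 173 chosen by control counts alone. The number called lower was 5, and 3 with total-count scaling or without exon overlaps, 2 with no overlapping gene, 1 at a minimum of 50 counts, 11 at 5, 14 with no minimum, 9 at a 1.5-fold threshold and 12 when chosen by control counts. The median log2 ratio was 0.35, and 0 at a minimum of 5 counts, with no minimum, and by FPKM with either pseudocount, and 0.14 when chosen by control counts. At the low minimums, copies with 0 control counts and too few CCE counts for a bound stand at 0 by construction. The ratio of summed counts was 0.19, and 0.23 with total-count scaling, 0.15 with upper-quartile scaling, 0.13 without RPS27P8, 0.15 when chosen by control counts, and -0.064 by FPKM with either pseudocount. The median difference from the parent was 0.58, and 0.10 at a minimum of 5 counts, 0 with no minimum, 0.42 and 0.44 by FPKM with pseudocounts of 1 and 0.1, and 0.36 when chosen by control counts. Members at least 2-fold above the parent numbered 46, and 20 with no overlapping gene and 30 when chosen by control counts. Members at least 2-fold below numbered 3, and 0 with no overlapping gene, 1 at a minimum of 50 counts, 9 at 5, 11 with no minimum, 5 by fold alone and 10 when chosen by control counts. The choice by control counts, the sums without RPS27P8 and the comparison without members of RPL17, RPL36A and RPS10 were added after the data were seen.

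By FPKM with pseudocounts of 1 and 0.1, 11 of the 37 named members changed sides, 5 stood at 0 and 21 kept their side. The 6 that changed sides among those called were RPS19P3 (-0.12 and -0.56), RPS6P25 (-0.64 and -2.72), RPL21P80 (0.83 and 0.91), RPS9P1 (1.07 and 3.58), RPL39P36 (0.86 and 1.09) and RPL7AP39 (-0.57 and -1.84). The other 5, RPLP0P6, RPS15P4, RPL15P3, RPL36AP37 and RPL21P16, had 0.09, -7.02, 7.77, -0.015 and -0.90 with a pseudocount of 1. The cause was not tested. Under total-count, upper-quartile and DESeq2 scaling, 37, 36 and 37 of the 37 kept their sign. The shallower control library limits precision, with a median of 10.5 counts per member.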
